A study of Mus musculus with 4 samples.

Results

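Peritubular capillary endothelium lines the small, fenestrated vessels that wrap the tubules of the kidney. In mouse kidney nuclei it was taken here as the barcodes that carried endothelial transcripts and Plvap but no Ehd3 and almost no proximal tubule transcripts. A barcode entered with at least 200 genes, at most 10% mitochondrial UMIs (unique molecular identifiers, each standing for 1 captured RNA molecule), at least 3 UMIs over Flt1, Emcn, Egfl7, Kdr and Ptprb, at least 1 UMI of Plvap, 0 UMIs of Ehd3 and at most 2 UMIs over Slc34a1, Lrp2, Cubn and Slc27a2. The members were thus chosen by measured UMIs of 11 genes. This rule took 1710 of 39074 barcodes.

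The nuclei came from the kidneys of female mice in 4 groups of 1 library each. MRL/lpr mice lack normal function of the death receptor FAS through the lpr mutation of its gene and come down with a nephritis like that of lupus. They were sampled at 10 weeks and at 6 weeks of age, as were C57BL/6 mice, a common inbred strain that does not develop that disease. The series' title concerns macrophages, mesangial cells and lupus nephritis, its design text names renal cortex, and nuclei were isolated on an iodixanol gradient and captured on a 10x Chromium instrument with 3′ reagents. No MRL mice with intact Fas and no number of mice per library are described in the sources used here, so strain background, the Fas mutation, disease and the single library cannot be told apart. With 1 library per group there is no test between strains or ages. Values are given with 95% exact intervals that cover counting error only, and a difference is called at 2-fold.

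Capillary endothelium of this kind takes back the water and solutes that the tubules reabsorb, and its fenestrae are closed by thin diaphragms built from the PLVAP protein. VEGF from the tubules acts on the receptors KDR and FLT1 to maintain these fenestrae. Endothelial cells of the kidney can also carry major histocompatibility complex (MHC) molecules, which show peptides to T cells, and interferon gamma raises those genes.

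The gate held 256 nuclei from MRL/lpr mice at 10 weeks, 506 from C57BL/6 mice at 10 weeks, 219 from MRL/lpr mice at 6 weeks and 729 from C57BL/6 mice at 6 weeks. These nuclei were shallow. Their median was 312 UMIs in MRL/lpr at 10 weeks, 309.5 in C57BL/6 at 10 weeks, 375 in MRL/lpr at 6 weeks and 301 in C57BL/6 at 6 weeks, against 756 to 875 UMIs in proximal tubule nuclei. These were taken with at least 3 UMIs of the 4 proximal tubule genes and 0 UMIs of Flt1, Emcn, Egfl7, Kdr and Ptprb. The deposited barcodes began at 175 UMIs in MRL/lpr at 10 weeks, 228 in C57BL/6 at 10 weeks, 308 in MRL/lpr at 6 weeks and 209 in C57BL/6 at 6 weeks, so the MRL/lpr library at 6 weeks stood apart in its lower limit. The summed UMIs of the gate were 95107 in MRL/lpr at 10 weeks, 186366 in C57BL/6 at 10 weeks, 100237 in MRL/lpr at 6 weeks and 271240 in C57BL/6 at 6 weeks, and levels are given as a gene's UMIs scaled to a common total per library (CPM). Pairs of libraries shared 112 to 143 barcode sequences, and 0 of these were gated nuclei.

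The genes of the rule are described here and tested nowhere. Plvap stood at 5394 CPM in MRL/lpr at 10 weeks, 5516 in C57BL/6 at 10 weeks, 4539 in MRL/lpr at 6 weeks and 5243 in C57BL/6 at 6 weeks. Emcn, the sialomucin endomucin, ranged over the 4 libraries from 4090 to 5187 CPM, Flt1, a VEGF receptor, from 3821 to 5731 CPM and Ptprb, the endothelial phosphatase VE-PTP, from 1327 to 1787 CPM. Plvap, Emcn, Flt1 and Ptprb were each lower in the MRL/lpr library of either age. Flt1 had 3985 CPM in MRL/lpr against 5731 in C57BL/6 at 10 weeks, and 3821 against 4406 at 6 weeks. Egfl7 went the other way at 10 weeks, with 3344 CPM in MRL/lpr against 2055 in C57BL/6. Among nuclei that met every other condition, 275 stood just inside the endothelial limit with a sum of 3 and 208 just outside it with a sum of 2, and 792 gated nuclei carried a single Plvap UMI. A proximal tubule sum of 2 was found in 53 gated nuclei, and a sum of 3 kept 14 nuclei out. Larger sums kept out more: with no limit on it the gate would hold 304 nuclei in MRL/lpr at 10 weeks, 591 in C57BL/6 at 10 weeks, 334 in MRL/lpr at 6 weeks and 817 in C57BL/6 at 6 weeks. Between 1.12% and 2.72% of proximal tubule nuclei had a Plvap UMI, the share in a cell type that should lack it. Proximal tubule nuclei with any UMI of the endothelial genes were left out beforehand, so this share does not cover them.

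Genes outside the rule were checked against the label. Of 32 genes on a list of general endothelial genes, 31 reached the 50 UMIs over the 4 libraries that were required for a comparison, and 29 of these 31 were higher in the gated nuclei than in the other kept barcodes of every library. They included Tek, the angiopoietin receptor, with a mean of 2280 CPM in the gate against 77.9 CPM in the rest, Pecam1, an endothelial junction molecule, with 1497 against 57.4 CPM, and the adhesion receptor gene Adgrl4 with 3278 against 104 CPM. On the list for peritubular capillaries, 17 of 20 genes were compared and 14 were above the rest in all 4 libraries. The same held for 10 of 10 compared glomerular endothelial genes, 4 of 5 arterial genes and 5 of 6 venous genes. These counts thus do not single out peritubular capillaries among vessels. The peritubular list summed to 19130 to 21630 CPM in the gate against 16660 to 20780 CPM in endothelial nuclei with neither Plvap nor Ehd3. How many of all compared genes stood above the rest was not counted. Plpp1, a lipid phosphatase, averaged 4812 CPM in the gate against 173 CPM in the rest, and Cd300lg, the lymphocyte-homing glycoprotein nepmucin, averaged 1003 against 31.2 CPM. The order over the rest was led by Slfn3 (at least 26.4 times in every library), the predicted gene 4930542D17Rik (24.8 times), Cd93 (23.8 times) and Shank3 (22.9 times). Since all of these ride on the same barcodes as the rule, they describe the gate and were not tested.

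Transcripts of other cell types were present in the gate as well. All 11 compared proximal tubule genes were below the rest in every library, with summed levels of 2955 CPM in MRL/lpr at 10 weeks, 3498 in C57BL/6 at 10 weeks, 5297 in MRL/lpr at 6 weeks and 4487 in C57BL/6 at 6 weeks. Loop and distal tubule genes summed to 2481 CPM in MRL/lpr at 10 weeks, 4534 in C57BL/6 at 10 weeks, 5936 in MRL/lpr at 6 weeks and 6865 in C57BL/6 at 6 weeks. Of the compared genes, 3 of 4 podocyte genes and 2 of 2 mural and mesangial genes were above the rest in all 4 libraries. Podocyte genes summed to 2555 CPM in MRL/lpr at 10 weeks, 2935 in C57BL/6 at 10 weeks, 2664 in MRL/lpr at 6 weeks and 2787 in C57BL/6 at 6 weeks, and mural and mesangial genes to 389 to 719 CPM. Over each library's gate, the 12 macrophage genes gave 23 to 40 UMIs and the 12 lymphocyte genes 2 to 7 UMIs. Lyve1 and Nts, lymphatic genes, and Gja5, an arterial connexin, had 0 UMIs in all gated nuclei. Other members of their lists were present. The arterial list summed to 1534 to 2534 CPM in the gate against 610 to 1112 CPM in the rest, with 4 of 5 compared genes above the rest in all 4 libraries. The lymphatic list summed to 170 to 509 CPM against 610 to 864 CPM, with 1 of 3 compared genes above the rest in all 4 libraries. The 16 cell cycle genes were too sparse to compare: between 3.57% and 6.39% of gated nuclei had a UMI of any of them.

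Peritubular capillary nuclei made up a smaller share of the MRL/lpr libraries than of the C57BL/6 libraries at both ages. The share of kept barcodes was 2.70% (2.38 to 3.04%) in MRL/lpr against 5.26% (4.82 to 5.73%) in C57BL/6 at 10 weeks, and 2.34% (2.04 to 2.67%) in MRL/lpr against 7.28% (6.78 to 7.81%) in C57BL/6 at 6 weeks. The MRL/lpr share was 0.513 times (0.439 to 0.597) the C57BL/6 share at 10 weeks and 0.321 times (0.275 to 0.374) at 6 weeks. When every library was held to barcodes of at least 308 UMIs, the share of MRL/lpr was 0.508 times that of C57BL/6 at 10 weeks (0.409 to 0.629) and 0.593 times at 6 weeks (0.498 to 0.704). Next, barcodes of at least 500 UMIs were thinned to 500 and the others left out. The ratio was then 0.663 at 10 weeks, with an interval that reached 1 (0.412 to 1.06), and 0.498 at 6 weeks (0.326 to 0.753). It rested on 33 gated nuclei in MRL/lpr and 47 in C57BL/6 at 10 weeks, and on 39 and 64 at 6 weeks. Thinned in the same way to 300 UMIs, a setting added after seeing the data, the ratio was 0.507 at 10 weeks (0.398 to 0.643) and 0.576 at 6 weeks (0.473 to 0.699). Without the limit on proximal tubule UMIs, likewise added, it was 0.521 at 10 weeks (0.452 to 0.600) and 0.437 at 6 weeks (0.384 to 0.497). The MRL/lpr share was thus the lower one at either age under each of these settings, and which age had the wider gap turned on the setting. Within the C57BL/6 libraries the share at 10 weeks was 0.723 times (0.644 to 0.810) that at 6 weeks, and within the MRL/lpr libraries it was 1.15 times (0.959 to 1.39) that at 6 weeks but 0.650 times (0.519 to 0.810) with at least 308 UMIs. The direction of the age comparison in MRL/lpr therefore turned on the lower limit.

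Taken among all nuclei that met the endothelial and proximal tubule limits, whatever their Plvap and Ehd3, the peritubular gate was 60.0% in MRL/lpr at 10 weeks, 64.0% in C57BL/6 at 10 weeks, 68.2% in MRL/lpr at 6 weeks and 62.8% in C57BL/6 at 6 weeks. The lower share in MRL/lpr was thus one of all nuclei that met these limits, with no matching gap in the portion that carried Plvap. A share of barcodes depends on how many nuclei of other types were recovered, and the number of capillaries in the tissue was not measured. It also depends on how many UMIs of the rule's genes each shallow nucleus yields. Most of these genes were lower in the gated MRL/lpr nuclei, and the part of this in the share was not tested.

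**Figure D1:**
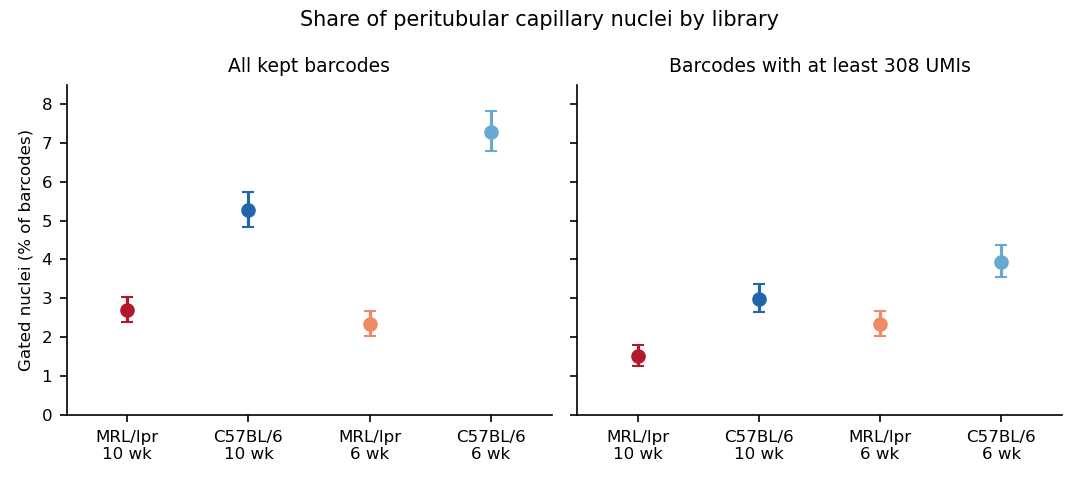
Peritubular capillary nuclei as a percent of kept barcodes (y axis) in each library, with exact 95% intervals for counting error, for all kept barcodes and for barcodes of at least 308 UMIs. The MRL/lpr libraries lie below the C57BL/6 library of the same age under both limits, and the gap at 6 weeks is narrower at the common limit (2.34% against 3.95%) than without it (2.34% against 7.28%).

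Between strains, few of the compared genes were at least 2-fold apart in the same direction at both ages. Genes 2-fold apart at a single age were not counted. Of 3198 genes with at least 50 UMIs, 35 stood at least 2-fold above C57BL/6 in MRL/lpr nuclei of each age (1.09%) and 44 at least 2-fold below it (1.38%), while 13 were 2-fold apart in opposite directions at the 2 ages (0.407%). The median log2 ratio over all 3198 genes was -0.03 at both ages. Counted at any size, 818 genes were higher (25.6%) and 1009 lower (31.6%) in the MRL/lpr library of each age. Of the 35 higher genes, 29 were on the vascular side, meaning that their mean level in the gate was at least 2-fold above that in the other kept barcodes; of the 44 lower genes, 20 were.

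The invariant chain gene Cd74, which guides MHC class II molecules to the compartment where they load peptide, was among the higher vascular genes. It stood at 3880 CPM in MRL/lpr against 821 CPM in C57BL/6 at 10 weeks, and at 1437 CPM in MRL/lpr against 347 CPM in C57BL/6 at 6 weeks. The MRL/lpr level was 4.73-fold higher at 10 weeks (log2 ratio 2.24, 1.96 to 2.52) and 4.14-fold higher at 6 weeks (2.05, 1.67 to 2.44). At least 1 Cd74 UMI was found in 53.5% of MRL/lpr nuclei and 16.4% of C57BL/6 nuclei at 10 weeks, and in 26.9% of MRL/lpr nuclei and 4.12% of C57BL/6 nuclei at 6 weeks. Gated nuclei of at least 300 UMIs were also thinned to 300, and those with fewer were left out. The shares with a Cd74 UMI were then 54.2% in MRL/lpr and 13.6% in C57BL/6 at 10 weeks, and 24.2% in MRL/lpr and 3.73% in C57BL/6 at 6 weeks. They were taken over 142, 280, 219 and 375 nuclei. In the proximal tubule nuclei of the same libraries, which are deeper, the unthinned shares were 11.3% in MRL/lpr and 10.7% in C57BL/6 at 10 weeks, and 9.57% in MRL/lpr and 3.07% in C57BL/6 at 6 weeks. Per UMI, the proximal tubule nuclei had 309 CPM of Cd74 in MRL/lpr and 248 in C57BL/6 at 10 weeks, and 329 CPM in MRL/lpr and 86.0 in C57BL/6 at 6 weeks, so that the capillary nuclei stood above them in all 4 libraries.

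Of the 6 class II genes on the list, 5 could be compared. All 5 were higher in the MRL/lpr library of each age (against 25.6% of all genes), 4 of them at least 2-fold (against 1.09%). The list's median log2 ratio was 1.67 at 10 weeks and 1.44 at 6 weeks, against -0.03 over all genes. H2-Aa, the alpha chain of the I-A molecule, had 505 CPM in MRL/lpr against 188 in C57BL/6 at 10 weeks and 269 CPM in MRL/lpr against 99.5 in C57BL/6 at 6 weeks. H2-Ab1, the beta chain of I-A, had 631 CPM in MRL/lpr against 199 in C57BL/6 at 10 weeks (log2 ratio 1.67, 1.05 to 2.30) and 279 CPM in MRL/lpr against 133 in C57BL/6 at 6 weeks (1.07, 0.31 to 1.83). Both chains of I-A therefore lay on the same side as Cd74.

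H2-DMb1, a chain of the H2-M molecule that exchanges peptides on class II, had 400 CPM in MRL/lpr against 69.8 in C57BL/6 at 10 weeks (2.52, 1.58 to 3.55) and 289 CPM in MRL/lpr against 40.6 in C57BL/6 at 6 weeks (2.83, 1.79 to 3.98). H2-Eb1, the beta chain of I-E, differed by less than counting error, with 13 UMIs in MRL/lpr against 25 in C57BL/6 at 10 weeks and 7 in MRL/lpr against 15 in C57BL/6 at 6 weeks. H2-DMa, Ciita (the class II master regulator) and H2-Ea had too few UMIs for a ratio. Alleles of these genes differ in sequence between MRL/lpr and C57BL/6, and a loss of reads at mismatched bases was not tested.

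The promoters of the class II genes are shown because 4 of 5 compared class II genes differed at least 2-fold in 1 direction. They are given in reference sequence and not that of MRL/lpr. Class II promoters hold a Y box, a CCAAT element bound by the factor NF-Y that works with the class II transactivator CIITA. The 250 bases before the RefSeq start were read from the table of build GRCm38.p6, which held 4 of the 6 list genes, each found by symbol. Capitals mark GATTGG, the letters CCAATC read on the other strand, searched on both strands; the motif was in all 4, with 14.6% of 32851 promoters of this length holding it. H2-Aa is on the minus strand and H2-Eb1 and H2-DMb1 on the plus strand.
H2-Aa, chr17:34287824-34288073: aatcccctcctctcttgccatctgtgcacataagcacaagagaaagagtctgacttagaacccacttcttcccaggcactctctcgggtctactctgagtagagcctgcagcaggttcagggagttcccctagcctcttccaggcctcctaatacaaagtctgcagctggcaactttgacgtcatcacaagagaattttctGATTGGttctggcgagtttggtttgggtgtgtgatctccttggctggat
H2-Eb1, chr17:34305617-34305866: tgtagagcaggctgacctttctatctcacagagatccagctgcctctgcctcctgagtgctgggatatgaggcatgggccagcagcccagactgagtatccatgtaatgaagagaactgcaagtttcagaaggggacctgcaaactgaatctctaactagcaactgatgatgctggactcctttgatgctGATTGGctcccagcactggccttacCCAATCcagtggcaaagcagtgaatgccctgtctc
H2-DMb1, chr17:34152941-34153190: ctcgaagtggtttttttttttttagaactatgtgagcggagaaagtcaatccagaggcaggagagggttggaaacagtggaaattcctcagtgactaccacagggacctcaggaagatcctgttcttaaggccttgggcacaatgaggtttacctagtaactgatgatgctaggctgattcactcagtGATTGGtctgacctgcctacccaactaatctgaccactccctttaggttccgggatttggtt
The match in H2-Aa ended 43 bases before the start and that in H2-DMb1 56 bases before it, while H2-Eb1 held a pair, 54 and 29 bases before its start. Of 2 starts listed for H2-DMa, 1 held the motif, 193 bases upstream. H2-Eb1, the member that did not differ between strains beyond counting error, therefore held the letters as well.

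**Figure D2:**
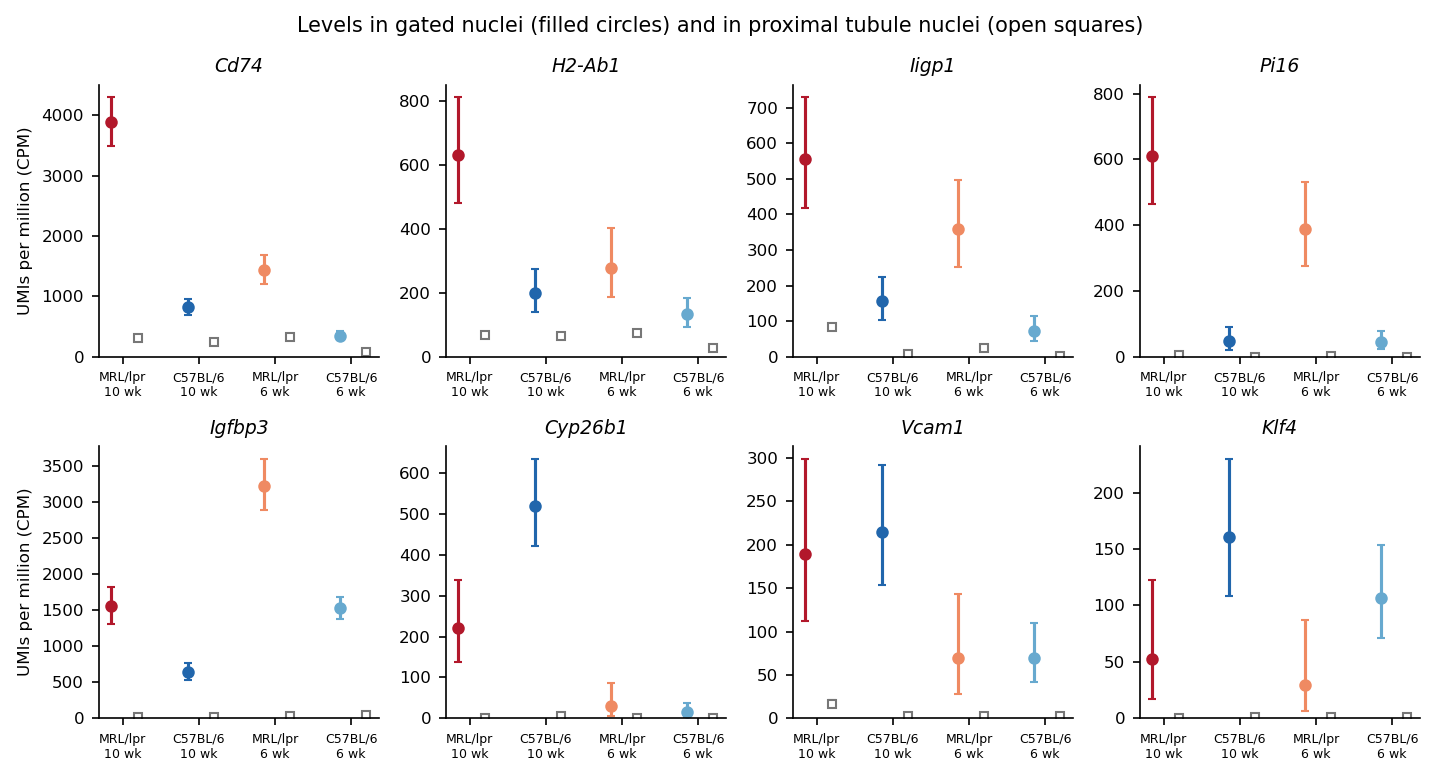
Levels in peritubular capillary nuclei of 8 genes of antigen presentation, strain or age, in CPM from 0 up (filled circles with exact 95% intervals for counting error), in each of the 4 libraries; open squares give proximal tubule nuclei. Cd74, H2-Ab1 and Iigp1 stand highest in MRL/lpr at 10 weeks, and Igfbp3 is higher at 6 weeks than at 10 weeks in each strain.

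Immune cells carry class II RNA as well, and their markers were higher in MRL/lpr too, by smaller amounts for the macrophage list. The 12 macrophage genes summed to 252 CPM in MRL/lpr against 215 CPM in C57BL/6 at 10 weeks, and to 230 CPM in MRL/lpr against 133 CPM in C57BL/6 at 6 weeks; Itgam was at 0 UMIs and Adgre1, Csf1r and Mrc1 had 3 to 4 UMIs over all gated nuclei. The 12 lymphocyte genes summed to 63.1 CPM in MRL/lpr against 10.7 CPM in C57BL/6 at 10 weeks, and to 39.9 CPM in MRL/lpr against 25.8 CPM in C57BL/6 at 6 weeks, on 6 against 2 UMIs and 4 against 7 UMIs, with Cd3e, Cd79a and Ms4a1 at 0. With every gated nucleus that had a UMI of either list left out, a setting chosen after seeing the data, the log2 ratio of Cd74 was 2.70 at 10 weeks and 3.22 at 6 weeks. The Plvap-negative endothelial nuclei, which also lacked Ehd3, had 2924 CPM of Cd74 in MRL/lpr against 491 in C57BL/6 at 10 weeks and 2534 CPM in MRL/lpr against 292 in C57BL/6 at 6 weeks. In that set the macrophage genes summed to 629 CPM in MRL/lpr against 228 in C57BL/6 at 10 weeks and 932 CPM in MRL/lpr against 197 in C57BL/6 at 6 weeks, and the lymphocyte genes to 927 CPM in MRL/lpr against 57.1 in C57BL/6 at 10 weeks and 47.8 CPM in MRL/lpr against 7.89 in C57BL/6 at 6 weeks. Their part in the Cd74 level of the Plvap-negative nuclei was not tested.

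Genes of the interferon gamma response were more often higher than lower in MRL/lpr, by smaller amounts than the class II genes. Of 34 on the list, 19 were compared. In MRL/lpr at each age 12 were above C57BL/6 (63.2%, against 25.6% of all genes) and 0 below (against 31.6%), with 4 at least 2-fold higher. The list's median log2 ratio was 0.14 at 10 weeks and 0.44 at 6 weeks. Iigp1, an interferon-induced GTPase, had 557 CPM in MRL/lpr against 156 in C57BL/6 at 10 weeks (1.84, 1.16 to 2.55) and 359 CPM in MRL/lpr against 73.7 in C57BL/6 at 6 weeks (2.28, 1.46 to 3.15). Nlrc5, the class I transactivator, had log2 ratios of 1.41 and 1.27, and Tap1, a subunit of the peptide transporter, 1.71 and 1.19, at 10 and 6 weeks. Nlrc5 and Tap1 were among the 4 genes at least 2-fold higher and are given with their values already known. The genes of the type I interferon list did not share a side: of 15 compared, 7 were higher and 6 lower in the MRL/lpr library of each age, and Rsad2, the antiviral protein viperin, had 904 CPM in MRL/lpr against 1551 in C57BL/6 at 10 weeks and 619 CPM in MRL/lpr against 741 in C57BL/6 at 6 weeks. No gene stands on both interferon lists.

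The class I genes split. Of 8 compared, 4 were higher in the MRL/lpr library of each age (50.0%, against 25.6% of all genes) and 2 lower (25.0%, against 31.6%), both of these at least 2-fold. The medians were 0.15 at 10 weeks and 0.53 at 6 weeks. H2-K1, a classical class I heavy chain, had 3733 CPM in MRL/lpr against 3241 in C57BL/6 at 10 weeks (0.20) and 3641 CPM in MRL/lpr against 1541 in C57BL/6 at 6 weeks (1.24). B2m, the light chain, which is encoded outside the H2 locus, had 7560 CPM in MRL/lpr against 7029 in C57BL/6 at 10 weeks and 9009 CPM in MRL/lpr against 4726 in C57BL/6 at 6 weeks. The strain gap in these abundant genes was thus small at 10 weeks and about as wide as 2-fold at 6 weeks.

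H2-Q7 and H2-Q6, of the H2-Q cluster, were the lower pair. H2-Q7, a non-classical class I gene, had 4 UMIs in MRL/lpr against 101 in C57BL/6 at 10 weeks and 2 UMIs in MRL/lpr against 73 in C57BL/6 at 6 weeks. Its level was 12.9-fold lower in MRL/lpr at 10 weeks (log2 ratio -3.69, -5.59 to -2.29) and 13.5-fold lower at 6 weeks (-3.75, -6.83 to -1.85). H2-Q6 had 0 UMIs in both MRL/lpr libraries against 84 in C57BL/6 at 10 weeks and 36 in C57BL/6 at 6 weeks, which is at least 14.3-fold lower at 10 weeks and at least 4.43-fold lower at 6 weeks, with each MRL/lpr library set at 3 UMIs. The H2-Q genes are near-identical copies whose number and sequence differ among strains, so their levels are uncertain.

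**Figure D3:**
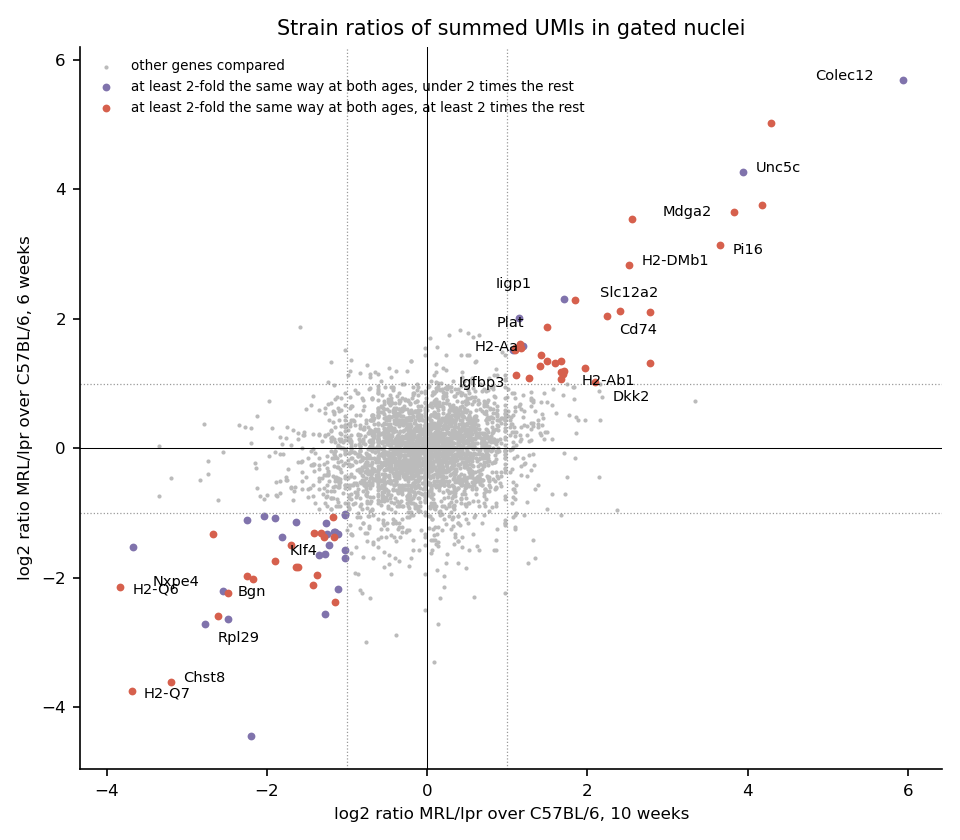
Log2 ratio of MRL/lpr to C57BL/6 levels in peritubular capillary nuclei at 10 weeks (x axis) and at 6 weeks (y axis), 1 point per compared gene, with named genes marked and dotted lines at 2-fold. Genes with 0 UMIs in a library are drawn at their bound. Cd74, Pi16 and Colec12 lie at the upper right and H2-Q7 at the lower left.

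Outside antigen presentation, the higher vascular genes held several that are known from other segments of the kidney's vessels. Pi16, a peptidase inhibitor domain gene placed on the glomerular endothelium list, had 610 CPM in MRL/lpr against 48.3 in C57BL/6 at 10 weeks (12.6-fold, log2 ratio 3.66, 2.64 to 4.86) and 389 CPM in MRL/lpr against 44.2 in C57BL/6 at 6 weeks (8.79-fold, 3.14, 2.17 to 4.21). Plat, which encodes tissue plasminogen activator, had 620 CPM in MRL/lpr against 220 in C57BL/6 at 10 weeks (1.50, 0.90 to 2.11) and 539 CPM in MRL/lpr against 148 in C57BL/6 at 6 weeks (1.87, 1.25 to 2.50). Dkk2, a secreted Wnt modulator, had log2 ratios of 2.10 and 1.02 and Smad6, an inhibitor of BMP signalling, 1.09 and 1.52, at 10 and 6 weeks. On the glomerular list as a whole, 10 of 20 genes were compared. In the MRL/lpr library of each age 6 were higher (60.0%, against 25.6% of all genes) and 3 lower (30.0%, against 31.6%), and the 4 just named were at least 2-fold higher. The gate excludes Ehd3 but does not exclude glomerular nuclei in which Ehd3 was not captured, and the part of such nuclei in these values was not tested. The glomerular list summed to 5310 CPM in MRL/lpr against 4604 in C57BL/6 at 10 weeks and 4789 CPM in MRL/lpr against 3949 in C57BL/6 at 6 weeks.

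Further named genes were higher in MRL/lpr. Mdga2, an adhesion protein known from neurons, had 29 UMIs in MRL/lpr against 4 in C57BL/6 at 10 weeks and 14 UMIs in MRL/lpr against 3 in C57BL/6 at 6 weeks. Slc12a2, the sodium, potassium and chloride cotransporter NKCC1, had 200 CPM in MRL/lpr against 37.6 in C57BL/6 at 10 weeks and 239 CPM in MRL/lpr against 55.3 in C57BL/6 at 6 weeks. Mtrex, an RNA helicase of the nuclear exosome, had log2 ratios of 2.78 and 2.10 at 10 and 6 weeks. The remaining vascular-side genes at least 2-fold higher included Sema3g, an arterial semaphorin (1.17 and 1.55), Gja1, a connexin (1.59 and 1.33), and Cldn15, a claudin known from fenestrated peritubular vessels (1.09 and 1.55), which were chosen for mention after their values were seen; 5 were predicted gene models with no described role.

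Matrix genes were more often higher than lower. Of 19 compared basement membrane and matrix genes, 8 were higher (42.1%, against 25.6% of all genes) and 1 lower (5.26%, against 31.6%) in the MRL/lpr library of each age, with medians of 0.51 at 10 weeks and 0.18 at 6 weeks. Sparc, a collagen-binding protein, had 2113 CPM in MRL/lpr against 714 in C57BL/6 at 10 weeks (1.57) and 2514 CPM in MRL/lpr against 1327 in C57BL/6 at 6 weeks (0.92). Col4a1 and Col4a2, the main collagen IV chains of vascular basement membrane, had log2 ratios of 1.29 and 1.17 at 10 weeks and of 0.38 and 0.14 at 6 weeks. The gap in these 3 genes was thus above 2-fold at 10 weeks and below it at 6 weeks; the difference between ages was not tested.

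The genes lower in MRL/lpr included a flow-responsive transcription factor and a matrix proteoglycan. Klf4, a flow-responsive transcription factor, had 5 UMIs in MRL/lpr against 30 in C57BL/6 at 10 weeks (log2 ratio -1.61, -3.34 to -0.23) and 3 UMIs in MRL/lpr against 29 in C57BL/6 at 6 weeks (-1.84, -4.20 to -0.15). Bgn, the proteoglycan biglycan, had 94.6 CPM in MRL/lpr against 295 in C57BL/6 at 10 weeks and 59.9 CPM in MRL/lpr against 214 in C57BL/6 at 6 weeks. Cdc42ep1, an effector of the GTPase CDC42, had log2 ratios of -1.69 at 10 weeks and -1.49 at 6 weeks. Each of these 3 was lower in both MRL/lpr libraries than in either C57BL/6 library.

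The flow-response list, which holds Klf4, did not move as a block. Of 9 compared, 2 were higher (22.2%, against 25.6% of all genes) and 4 lower (44.4%, against 31.6%) in the MRL/lpr library of each age. The medians were -0.61 at 10 weeks and -0.05 at 6 weeks. Klf2, the partner of Klf4 in the response to laminar flow, had 358 CPM in MRL/lpr against 692 in C57BL/6 at 10 weeks and 728 CPM in MRL/lpr against 756 in C57BL/6 at 6 weeks, so that the MRL/lpr library at 10 weeks was the low one. Nxpe4 had 0 UMIs in both MRL/lpr libraries against 33 in C57BL/6 at 10 weeks and 38 in C57BL/6 at 6 weeks, at least 5.61-fold lower at 10 weeks and at least 4.68-fold lower at 6 weeks. Chst8, a sulfotransferase, Sft2d1, Dipk2b, Mxra7 and Rapgef4os1 were also lower; the last is annotated opposite to Rapgef4, and since the strand of counting is not stated its UMIs cannot be told from those of its partner.

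Other strain differences lay in genes whose mean level over the 4 libraries was not 2-fold higher in the gate than in the remaining barcodes. Colec12, a scavenger receptor, had 250 UMIs in MRL/lpr against 8 in C57BL/6 at 10 weeks and 344 UMIs in MRL/lpr against 18 in C57BL/6 at 6 weeks, the widest of the ratios in the upward direction (log2 5.94 and 5.69), and the other kept barcodes held 5306 CPM of it in MRL/lpr against 34.3 in C57BL/6 at 10 weeks and 6798 CPM in MRL/lpr against 77.4 in C57BL/6 at 6 weeks. Unc5c, a netrin receptor, had log2 ratios of 3.95 at 10 weeks and 4.27 at 6 weeks in the gate. Its gate level was 662 CPM in MRL/lpr against 42.9 in C57BL/6 at 10 weeks, and 639 CPM against 33.2 at 6 weeks. The other kept barcodes went the other way, with 157 CPM in MRL/lpr against 294 in C57BL/6 at 10 weeks, and 124 CPM against 322 at 6 weeks. Rpl29, a ribosomal protein gene, had 3 UMIs in MRL/lpr against 40 in C57BL/6 at 10 weeks and 3 UMIs in MRL/lpr against 53 in C57BL/6 at 6 weeks. Ribosomal protein genes in general were lower. Of 37 compared, 0 were higher (against 25.6% of all genes) and 23 lower (62.2%, against 31.6%) in the MRL/lpr library of each age. Their medians were -0.52 at 10 weeks and -0.38 at 6 weeks. In proximal tubule nuclei the same genes summed to 6733 CPM in MRL/lpr against 9156 in C57BL/6 at 10 weeks and 12000 CPM in MRL/lpr against 10460 in C57BL/6 at 6 weeks. Ribosomal transcripts are cytoplasmic, and a part of carried-over cytoplasm in these values was not tested.

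The transcripts on the peritubular list had no common direction between strains. Of 17 compared, 4 were higher (23.5%, against 25.6% of all genes) and 6 lower (35.3%, against 31.6%) in the MRL/lpr library of each age. Of these, 1, Igfbp3, was at least 2-fold higher (log2 ratios 1.27 at 10 weeks and 1.08 at 6 weeks). The medians were -0.07 at 10 weeks and -0.11 at 6 weeks. The summed level was 19130 CPM in MRL/lpr against 20150 in C57BL/6 at 10 weeks and 21630 CPM in MRL/lpr against 21100 in C57BL/6 at 6 weeks. Plpp1 had 4679 CPM in MRL/lpr against 5017 in C57BL/6 at 10 weeks and 4599 CPM in MRL/lpr against 4951 in C57BL/6 at 6 weeks. Igfbp5, an insulin-like growth factor binding protein, lay between 3492 and 3915 CPM in the 4 libraries. Ptprg, a receptor phosphatase, was lower, with log2 ratios of -0.79 at 10 weeks and -0.57 at 6 weeks, and so was Fabp4, a fatty acid carrier of capillary endothelium, with -1.15 and -0.57.

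The other functions of the vessel are given by the same counts, to be read beside 25.6% higher and 31.6% lower over all genes. Of 15 compared VEGF and angiopoietin genes, 5 were higher and 5 lower in the MRL/lpr library of each age; of 22 junction and cytoskeleton genes, 5 and 6; of 18 genes of TGF-beta, BMP and Wnt signalling, 4 and 7; of 14 leukocyte adhesion and chemokine genes, 5 and 4. Of 12 coagulation and vascular tone genes, 4 were higher (33.3%) and 1 lower (8.33%). Fas itself was not lower in MRL/lpr: it had 39 UMIs in MRL/lpr against 43 in C57BL/6 at 10 weeks and 51 UMIs in MRL/lpr against 63 in C57BL/6 at 6 weeks, or log2 ratios of 0.83 and 1.13. Where these 3′ tags lie relative to the mutation is not known, so this gene does not check the labels.

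**Figure D4:**
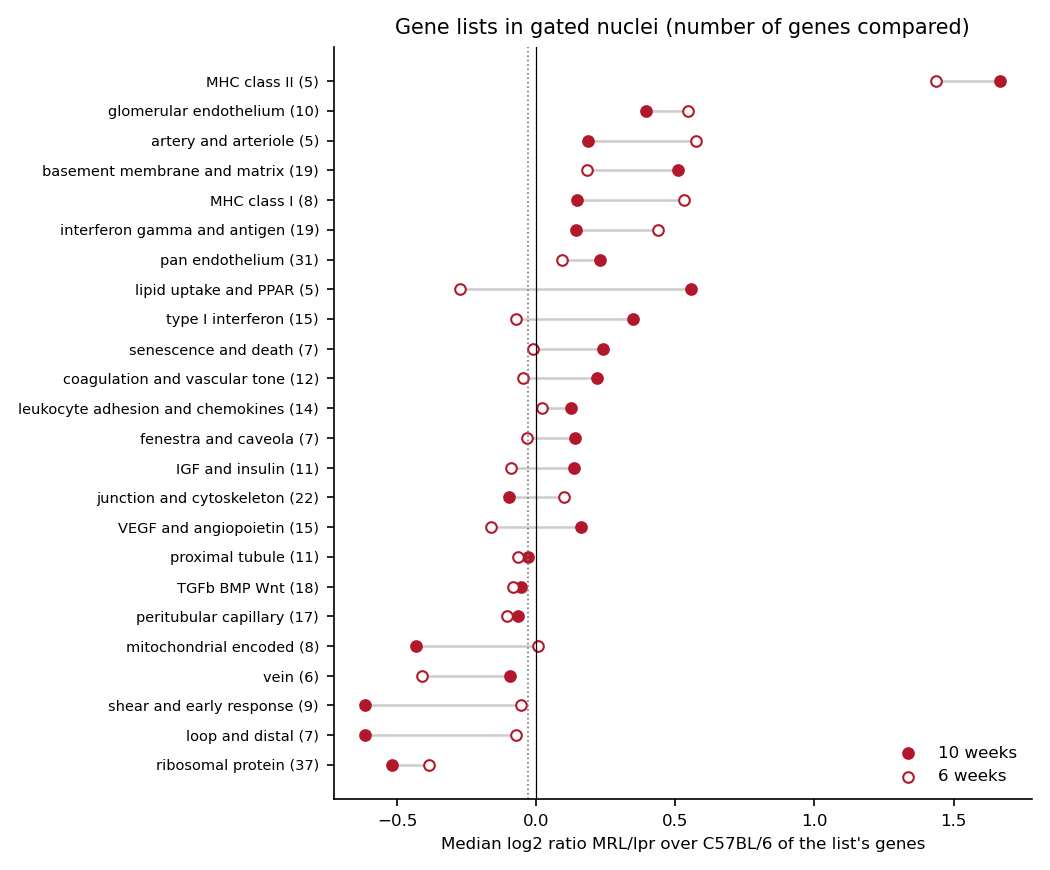
Median log2 ratio of MRL/lpr to C57BL/6 in peritubular capillary nuclei at 10 weeks and 6 weeks (x axis) for each list with at least 5 compared genes (y axis); the dotted line is the median of all 3198 genes at 10 weeks. The class II list lies farthest to the right (1.67 and 1.44), and the peritubular list lies near the line.

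Fewer genes differed with age in both strains. At least 2-fold higher at 10 weeks than at 6 weeks in both strains were 6 of 3198 genes (0.188%), 6 were lower (0.188%) and 11 were 2-fold apart in opposite directions in the 2 strains (0.344%); at any size 801 were higher (25.0%) and 877 lower (27.4%). Cyp26b1, which degrades retinoic acid, had 21 UMIs in MRL/lpr at 10 weeks against 3 at 6 weeks, and 97 UMIs in C57BL/6 at 10 weeks against 4 at 6 weeks. Its level was higher at 10 weeks by 2.88 on the log2 scale in MRL/lpr (1.14 to 5.27) and by 5.14 in C57BL/6 (3.74 to 7.05). Both libraries at 10 weeks were thus above both at 6 weeks.

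Vcam1, an adhesion molecule for leukocytes, followed that order, with 189 CPM in MRL/lpr at 10 weeks against 69.8 at 6 weeks (1.44, 0.11 to 2.94) and 215 CPM in C57BL/6 at 10 weeks against 70.1 at 6 weeks (1.62, 0.79 to 2.49). Between strains Vcam1 differed by less than counting error at either age. Cd74 was higher at 10 weeks by 1.43 (1.15 to 1.72) in MRL/lpr and by 1.24 (0.86 to 1.63) in C57BL/6, and all 5 compared class II genes were higher at 10 weeks in either strain (median log2 ratio 0.97 for MRL/lpr, 0.92 for C57BL/6). H2-Q7 was the other vascular gene above 2-fold, by 1.08 in MRL/lpr and by 1.01 in C57BL/6, on few UMIs in MRL/lpr.

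Igfbp3, a carrier of insulin-like growth factors, was the vascular gene lower at 10 weeks. It had 1556 CPM in MRL/lpr at 10 weeks against 3232 at 6 weeks, and 644 CPM in C57BL/6 at 10 weeks against 1526 at 6 weeks, with log2 ratios of -1.05 (-1.35 to -0.77) in MRL/lpr and -1.25 (-1.55 to -0.95) in C57BL/6. It was found in 29.7% of MRL/lpr nuclei at 10 weeks against 53.4% at 6 weeks, and in 16.0% of C57BL/6 nuclei at 10 weeks against 32.5% at 6 weeks. It was also higher in MRL/lpr than in C57BL/6 at 10 weeks (1.27, 0.92 to 1.63) and at 6 weeks (1.08, 0.87 to 1.30), so both age and strain separated its levels. The 5 other genes lower at 10 weeks, Trpm6, Lama3, Magi2 and Htr1f among them, were not on the vascular side, and the loop and distal tubule genes in the gate were lower as well, 5 of 7 in both strains; their part in these 5 was not tested.

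The gate was last set against other endothelial nuclei of the same libraries, where the 4 libraries serve as replicates and a test is possible. Endothelial nuclei without Plvap and Ehd3 numbered 156 in MRL/lpr at 10 weeks, 234 in C57BL/6 at 10 weeks, 86 in MRL/lpr at 6 weeks and 377 in C57BL/6 at 6 weeks. This set was added after seeing the data because the glomerular set below was small, and at these depths it may hold capillary nuclei in which Plvap was not captured. With edgeR's quasi-likelihood test on UMIs summed per library, with the library as a block and the rule's genes left out, 6 of 2349 genes were higher in the gate (0.255%) and 7 lower (0.298%) at an adjusted p under 0.05.

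Nlgn1, a synaptic adhesion protein, had 279 CPM in the gate of MRL/lpr at 10 weeks, 148 in C57BL/6 at 10 weeks, 112 in MRL/lpr at 6 weeks and 151 in C57BL/6 at 6 weeks, against 0 to 32.1 CPM (0 to 4 UMIs) in the Plvap-negative nuclei of the 4 libraries (log2 fold change 2.89, SE 0.44, adjusted p = 0.0005464 by edgeR). Nlgn1 passed the low-count filter only through the gate, where it is high, so its call is no support for a difference. Rgcc, a cell cycle regulator induced in endothelium, rose by 0.81 (SE 0.15, adjusted p = 0.005063 by edgeR) and Sema3d, a secreted semaphorin, by 1.23 (SE 0.27, adjusted p = 0.02485 by edgeR), both in 4 of 4 libraries. Between strains Rgcc had 852 CPM in the gate of MRL/lpr against 2039 in C57BL/6 at 10 weeks and 1018 CPM in MRL/lpr against 1360 in C57BL/6 at 6 weeks, a pair of differences given with their values already known. The remaining 3 higher genes, Ly6a, a surface antigen of mouse vessels, Gas6, a ligand of TAM receptors, and Pde7b, a cyclic AMP phosphodiesterase, differed by 0.48 to 0.71 on the log2 scale. All 6 were thus higher in the gate of every library.

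Among the lower genes Mgp, matrix Gla protein of arteries, fell by 1.63 on the log2 scale (SE 0.25, adjusted p = 0.0005464 by edgeR) and was lower in 3 of 4 libraries. It had 397 CPM in the gate against 1913 in Plvap-negative nuclei of MRL/lpr at 10 weeks, 76.8 against 92.6 in C57BL/6 at 10 weeks, 81.3 against 48.4 in MRL/lpr at 6 weeks and 158 against 497 in C57BL/6 at 6 weeks. In MRL/lpr at 10 weeks 7 gated nuclei held 37 UMIs of it and 7 Plvap-negative nuclei 120 UMIs, and the mural and mesangial genes summed to 4417 CPM in those Plvap-negative nuclei against 422 to 875 CPM in the other libraries; their part was not tested. Pi16 fell by 1.03 (SE 0.22, adjusted p = 0.02042 by edgeR) and Mecom, a transcription factor of arterial endothelium, by 0.81 (SE 0.18, adjusted p = 0.02694 by edgeR), both in 4 of 4 libraries. Counted over all genes, Mecom had 462 to 539 CPM in the gate against 955 to 1223 CPM in the other kept barcodes. The part of other cell types in its fall was not tested. The other 4 lower genes were Egf and Slc12a1, transcripts of the distal tubule and the thick ascending limb, Col4a4, a collagen IV chain made by podocytes, and Mms19. These calls were lost altogether without the MRL/lpr library at 10 weeks, which left 0 in each direction by edgeR with 161 genes at an unadjusted p under 0.05, and likewise without the library block (0 in each direction, 99 genes unadjusted) and with DESeq2 (0 in each direction, 106 genes unadjusted).

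Glomerular endothelium, taken as the same endothelial limit with Ehd3 and without Plvap, held 4 nuclei in MRL/lpr at 10 weeks, 11 in C57BL/6 at 10 weeks, 4 in MRL/lpr at 6 weeks and 21 in C57BL/6 at 6 weeks. Of 881 genes tested by edgeR, 1 was higher in the peritubular gate (0.114%) and 1 lower (0.114%). The higher one, Slc8a1, the sodium and calcium exchanger of the distal tubule, had 77 to 890 UMIs in the gate of each library against 1 UMI in the glomerular set of the 4 together. It passed the low-count filter only through the gate, where it is high, so its call is no support for a difference. It came from 6.6% to 13.2% of gated nuclei with as many as 114 UMIs in one nucleus, and the other kept barcodes held 3164 to 5645 CPM of it. Pi16 fell by 2.37 (SE 0.60, adjusted p = 0.03962 by edgeR) and was lower in 3 of 4 libraries. With 48.3 and 44.2 CPM in the C57BL/6 gates, it passed the low-count filter only with the glomerular set, where it is high. That set summed to 1343 to 6654 UMIs per library. The call of Pi16 is therefore no support for a difference either. Pi16 lies outside the rule for named genes and is given with its values already known.

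**Figure D5:**
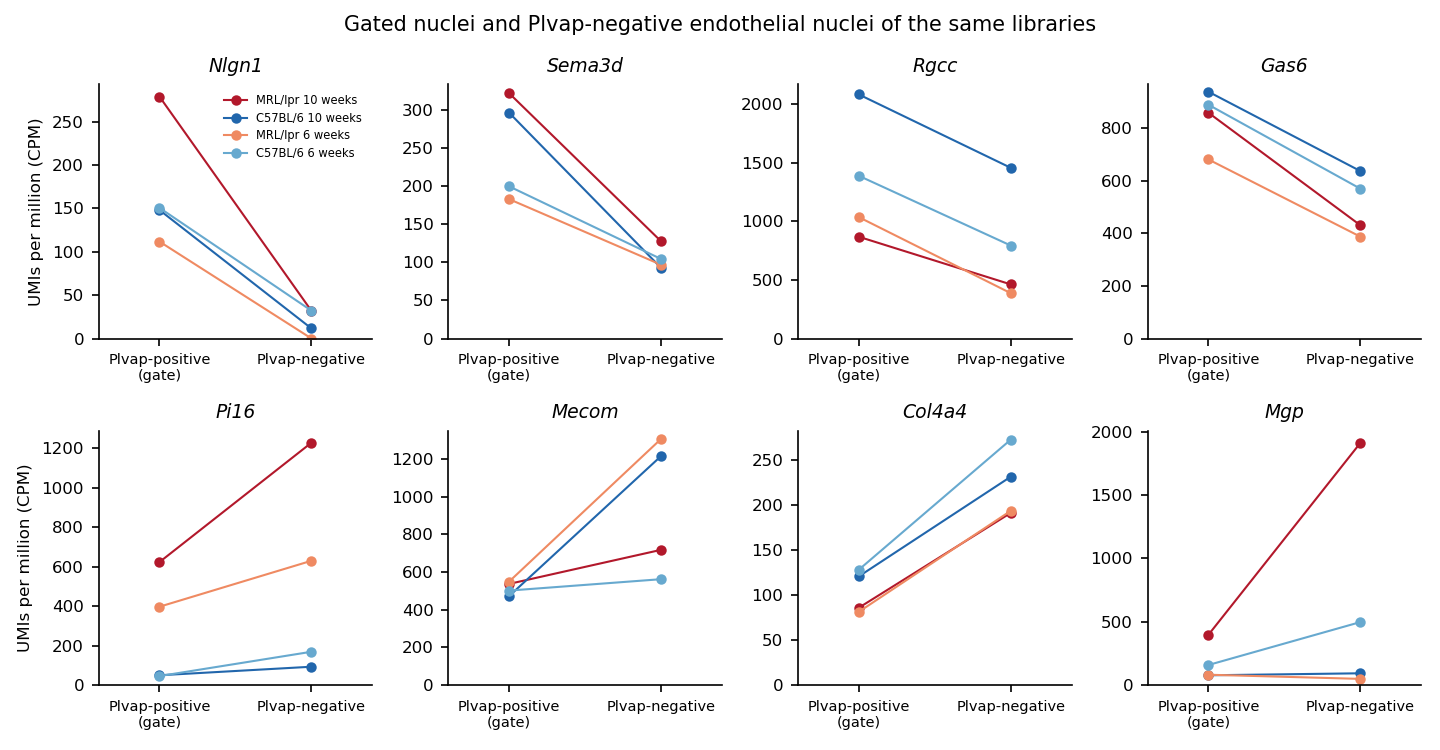
Levels of 8 of the 13 genes called by edgeR in peritubular capillary nuclei and in Plvap-negative endothelial nuclei, in CPM from 0 up, with a line joining the 2 sets of each library. Nlgn1 lies higher and Pi16 lower in the peritubular nuclei of all 4 libraries, while Mgp is lower in 3 of 4.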

How the data were processed

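Nuclei from 4 mouse kidney libraries were analysed from the deposited UMI counts per gene and barcode (25636 genes); per the submitters' processing notes these were made with Cell Ranger 3.1.0, whereas the file headers name version 5.0.0, and the genome build is not given in the sources used here. The members, lists and comparisons were chosen with earlier results of these data known. Barcodes were gated in scanpy 1.11.5 by the rule stated above. Doublets marked with Scrublet (14 to 73 gated nuclei per library) were kept, and were left out as an alternative. Counts were summed per library, scaled to CPM, and compared as ratios with exact binomial 95% intervals, where 0 UMIs were set at 3. Genes with 50 UMIs or more were compared. Named were up to 12 vascular-side genes each way between strains, 5 others, 6 by age, and list members with the most UMIs. Gates of the same library were compared with edgeR 4.0.16 (R 4.3.3) on summed counts, with Benjamini-Hochberg adjustment and a low-count filter; DESeq2 1.42.0 was an alternative. The library is the block, since both gates come from the same animals. CPM beside an edgeR result are per UMIs without the rule's genes. Intervals cover counting error only. The edgeR steps were tested on simulated data. Some genes are not reported here.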

Additional observations from a re-analysis of the deposited data

Results flagged for a closer look

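For 3 genes on the vascular side the strain ratio had opposite signs at the 2 ages, at least 2-fold each way; with 1 library per group the difference between ages was not tested. Eln, which encodes elastin, had 9 UMIs in MRL/lpr against 53 in C57BL/6 at 10 weeks and 27 UMIs in MRL/lpr against 20 in C57BL/6 at 6 weeks, so that its log2 strain ratio at 10 weeks was -3.46 relative to that at 6 weeks. With an endothelial sum of at least 5 its ratio at 10 weeks was 0.47, which ends the opposite signs, and the 27 UMIs came from 9 nuclei. Emid1, an extracellular matrix gene, had 11 UMIs in MRL/lpr against 9 in C57BL/6 at 10 weeks (1.26, -0.15 to 2.71) and 4 UMIs in MRL/lpr against 37 in C57BL/6 at 6 weeks, a difference of 3.03 between the ages; the interval at 10 weeks holds 0. Cyp26b1 had 21 UMIs in MRL/lpr against 97 in C57BL/6 at 10 weeks (-1.24, -1.99 to -0.55) and 3 UMIs in MRL/lpr against 4 in C57BL/6 at 6 weeks (1.02, -1.75 to 3.58), a difference of -2.26; the interval at 6 weeks holds 0.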

How the results depend on the processing

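Over the alternatives, 708 values of named genes moved by less than their counting interval, 23 moved by more and 1 reversed: with an endothelial sum of at least 5, the log2 ratio of Eln at 10 weeks was 0.47. The list medians were judged by a fixed limit on the log2 scale and not by a counting interval: 997 stayed within it and 23 did not. With a minimum of 20 UMIs, 102 genes were 2-fold higher and 195 lower in the MRL/lpr library of each age, and 49 were higher and 61 lower at 10 weeks in each strain; with 100 UMIs these counts were 13, 13, 3 and 4. Without doublets 10 genes were lower at 10 weeks, and with an endothelial sum of at least 5, 15 were, while 20 were higher in MRL/lpr. The share ratio was 0.417 at 10 weeks with that sum and 0.663 thinned to 500 UMIs; at 6 weeks it was 0.593 at the common lower limit, 0.498 thinned to 500 UMIs, and 0.576 thinned to 300 UMIs and 0.437 with no proximal tubule limit (both added after seeing the data).

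Against glomerular endothelium, DESeq2 called 1689 genes higher and 2 lower, the unfiltered fit 82 higher, the fit without doublets 0 higher (67 at an unadjusted p under 0.05), and the glomerular set with any Plvap, added after seeing the data, 3 higher and 0 lower (61 unadjusted). Without the replicate block by library 0 were lower (110 unadjusted), and leaving out each library in turn gave 1 to 2 higher and 0 to 1 lower. Against Plvap-negative endothelium, DESeq2 and the fit without the block called 0 in each direction, the unfiltered fit 15 higher and 14 lower, and leaving out each library 0 to 7 higher and 0 to 10 lower: 2 and 1 without MRL/lpr at 6 weeks, 5 and 8 without C57BL/6 at 10 weeks, 7 and 10 without C57BL/6 at 6 weeks. The fit thinned to 500 UMIs could not be fitted, since both MRL/lpr libraries then had 0 glomerular nuclei. Gated nuclei held about 300 UMIs, and 3 UMIs in a library, the level at which 0 UMIs were set, correspond to 11.1 to 31.5 CPM.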
